A study of Mus musculus with 23 samples.

Results

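The genes described here are 10 markers of alveolar type 1 cells, chosen by name: Ager, Aqp5, Hopx, Pdpn, Rtkn2, Clic5, Emp2, Cav1, Akap5 and Spock2. They are 10 of the 41073 genes counted, and all 10 were present in each of the 3 count tables and passed the filter on low counts in every comparison. Bulk RNA sequencing was done on lung cells of C57BL/6 wild type mice selected for the surface protein EpCAM, either fresh or grown on porous inserts, where removal of the medium above the cells (airlift) leaves them facing air. The groups were freshly isolated cells (3 libraries), cells on the day of airlift (6), cultures treated with NTHi and taken at day 4 (7), and untreated cultures taken at day 4 (7), from 3 experiments, A, B and C, that each held every group. NTHi is the usual abbreviation for nontypeable Haemophilus influenzae, a bacterium of the airways. The labels give neither its dose nor its form, nor the age of the mice. They also do not say whether replicates came from separate cultures or animals, so the p-values reflect only how much these samples vary, and part of that may be technical.

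Alveolar type 1 cells are the thin, flat cells that cover most of the gas exchange surface of the lung and form its barrier with the capillaries. In the adult lung they are renewed mainly from alveolar type 2 cells, which make surfactant and pass through an intermediate state with high keratin 8 before they flatten. Several of their markers are not exclusive to them, since Pdpn is also made by lymphatic endothelium, mesothelium and fibroblasts, Cav1 by endothelium, and Aqp5 by glands and some airway cells.

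Libraries held between 32323375 and 39081663 counts. Levels are given as CPM, counts scaled to a common depth by each library's total after TMM scaling, which corrects totals for a few very abundant genes. TMM factors were between 0.741 and 0.77 in fresh cells and between 0.983 and 1.096 in culture, so comparisons with fresh cells depend on the scaling more than the others do. The labels call the cells airway epithelial, but alveolar and airway markers were both present in the fresh libraries, where 10 alveolar type 2 markers summed to 83090 to 109400 CPM and 8 club and secretory markers to 171200 to 191700 CPM. The 10 alveolar type 1 markers summed to 2147 to 2610 CPM in fresh cells, 2339 to 3009 CPM at airlift, 1650 to 1809 CPM at day 4 with NTHi and 3722 to 4446 CPM in day 4 controls. Each of the 10 had a mean level above 1 CPM in every group. In bulk RNA, fewer cells of a type and less RNA per cell cannot be told apart.

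The sequence just upstream of the start differs widely between these genes, and is shown for Ager and Aqp5, whose falls with NTHi were nearly equal, and for Pdpn, which rose. The sequences are the 250 bases before the annotated start from RefSeq, build GRCm38.p6, with each CpG dinucleotide in capitals. The Ager sequence lies at chr17:34597600-34597849 on the plus strand, the Aqp5 sequence at chr15:99590778-99591027 on the plus strand, and the Pdpn sequence at chr4:143299565-143299814 on the minus strand.
Ager: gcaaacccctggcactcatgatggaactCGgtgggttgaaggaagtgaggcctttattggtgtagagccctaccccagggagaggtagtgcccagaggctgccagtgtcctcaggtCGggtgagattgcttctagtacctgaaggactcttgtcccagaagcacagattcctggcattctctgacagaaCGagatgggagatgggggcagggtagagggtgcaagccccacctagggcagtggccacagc
Aqp5: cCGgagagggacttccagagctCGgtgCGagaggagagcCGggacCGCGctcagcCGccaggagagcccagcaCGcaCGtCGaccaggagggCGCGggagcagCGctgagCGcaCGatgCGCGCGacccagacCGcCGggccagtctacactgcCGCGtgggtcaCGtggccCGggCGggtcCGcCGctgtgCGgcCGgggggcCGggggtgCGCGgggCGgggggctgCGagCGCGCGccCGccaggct
Pdpn: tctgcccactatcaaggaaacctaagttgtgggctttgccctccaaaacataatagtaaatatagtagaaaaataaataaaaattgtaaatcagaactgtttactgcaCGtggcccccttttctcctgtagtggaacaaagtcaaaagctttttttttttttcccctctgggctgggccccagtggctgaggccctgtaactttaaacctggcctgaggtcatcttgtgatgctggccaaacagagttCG
The Aqp5 sequence was 78.4% G or C and held 38 CpG, whereas the Ager sequence was 57.6% G or C with 3 CpG, and the Pdpn sequence was 43.2% G or C with 2. The medians over all 32851 RefSeq promoters were 52.4% and 6 CpG, so Ager and Aqp5 lay on opposite sides of the median number of CpG. The genes shown were picked by their changes with NTHi, and a relation between CpG number and those changes was not tested. RefSeq promoters matched 9 of the 10 markers, all but Rtkn2, with 11 promoters in all. Windows of 300 bases, which add 50 bases after the start, were searched on both strands for 5 motifs, none of which overlapped another. The TEAD motif GGAATG was in 0 of the 11 promoters and 14.7% of all promoters, and the AP-1 motif TGANTCA in 0 and 7.81%. The NKX2-1 motif CAAGTG was found once each in Hopx and Spock2 (13.6% of all promoters), the NF-kB motif once in Akap5 (8.46%), and the TATA box TATAAA once in Cav1 (13.6%). The matches in Hopx, Spock2 and Akap5 lay after the start, at bases 35, 33 and 27. The TATAAA match lay at base -221 on the opposite strand, in only 1 of the Cav1 promoters. A match or its absence in these windows is a description of the letters only.

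The first comparison asked what NTHi did to these markers by day 4. With NTHi, 9 of the 10 markers fell and 1, Pdpn, rose. The median log2 change of the 10 was -1.14, against -0.00013 over the 16337 genes tested. Of all genes tested 40.5% were called, 20.1% higher and 20.4% lower, at an adjusted p under 0.05 in edgeR's quasi-likelihood test, with adjustment after Benjamini and Hochberg, which is the test behind every call below. With scaling by library totals alone, 2282 genes were called higher and 4416 lower in place of 3281 and 3338, and the counts of markers, 1 higher and 9 lower, were the same. The NTHi and control libraries did not overlap for any marker but Cav1. How many of all genes were also without overlap was not counted, so this cannot be set against a share of all genes.

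**Figure D1:**
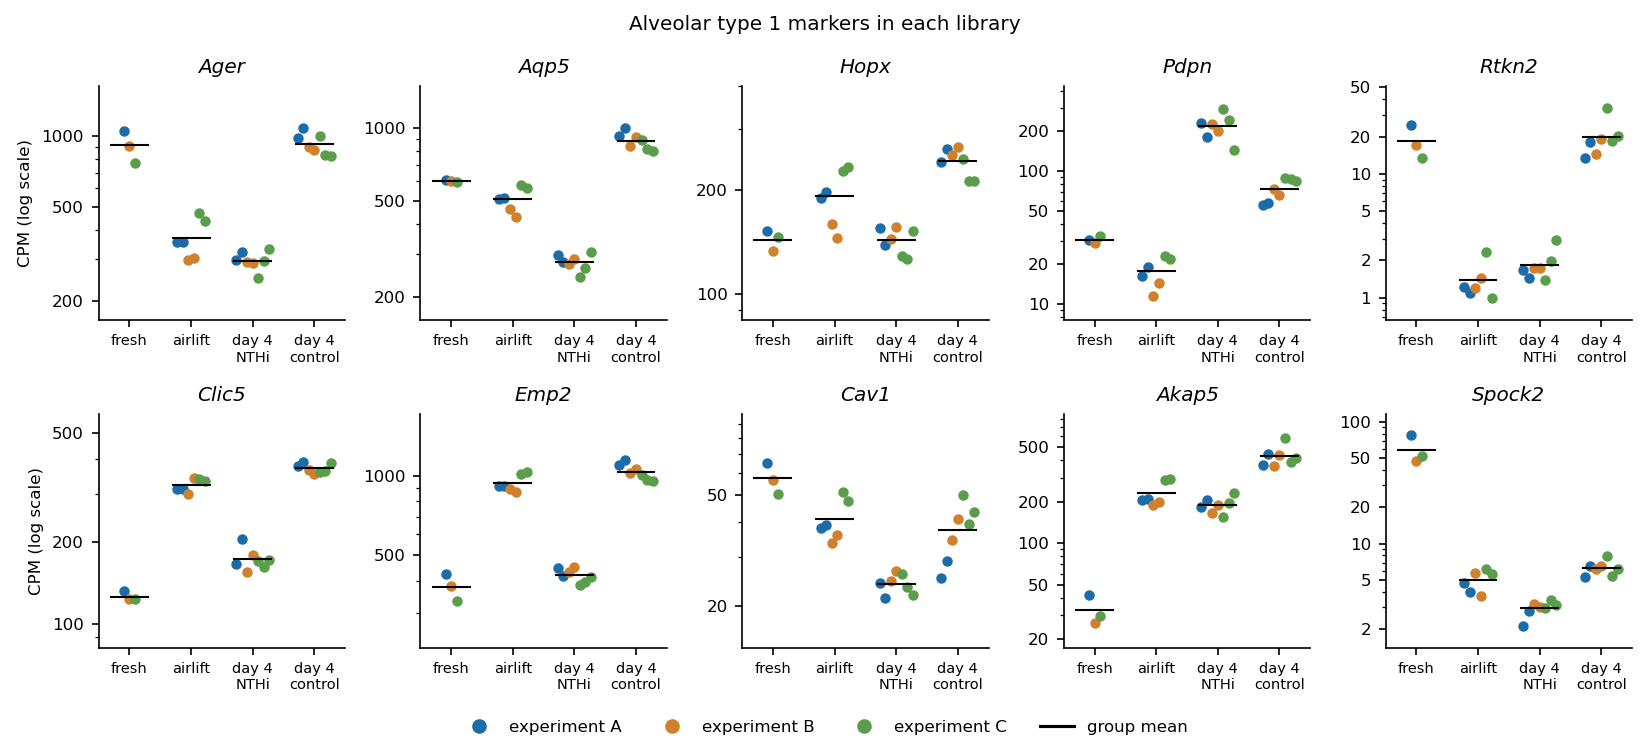
CPM (log scale) of each marker in every library, with fresh cells, airlift, day 4 NTHi and day 4 control side by side, colours for experiments A, B and C and bars at group means. The 7 NTHi points lie below the 7 control points in 8 panels, above them for Pdpn, and run into them for Cav1.

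Ager encodes RAGE, the receptor for advanced glycation end products, which is enriched on the basal side of alveolar type 1 cells. It was at 249.6 to 331 CPM with NTHi (median 295) and at 827 to 1086 CPM in controls (median 897), a log2 change of -1.64 ± 0.066 (SE, n = 7 each; adjusted p = 4.5e-11, edgeR). The highest NTHi library lay far below the lowest control library. Within experiments A, B and C the difference was -1.73, -1.61 and -1.60. Aqp5, a water channel of the apical membrane, was at 240 to 307 CPM with NTHi (median 278) and 801 to 996 CPM in controls (median 893). Its log2 change was -1.67 ± 0.056 (SE, n = 7 each; adjusted p = 6.3e-12, edgeR), and again no library of one group reached the other. Emp2, a tetraspan membrane protein, averaged 419.6 ± 25.9 CPM with NTHi and 1037 ± 71.7 CPM in controls (SD, n = 7 each), a log2 change of -1.31 ± 0.040. It had the smallest standard error of the 10 markers in this comparison.

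Pdpn, which encodes podoplanin, a mucin-like protein of the apical membrane that binds ezrin and moesin, was the exception. Its level was 144 to 293 CPM with NTHi (median 228) and 56.1 to 88.8 CPM in controls (median 73.3), with no overlap. The log2 change was 1.59 ± 0.13 (SE, n = 7 each; adjusted p = 1.4e-07, edgeR), and within experiments A, B and C the difference was 1.84, 1.61 and 1.32. Among the other sources of Pdpn, 6 lymphatic endothelial markers summed to 31.4 to 47.6 CPM with NTHi and 20.2 to 26.5 CPM in controls. Of the 3 that could be tested 1 was called higher and 0 lower, while Lyve1, Mmrn1, Ccl21a and Reln were below 1 CPM in both groups. Most of the lymphatic endothelial sum was Flt4, at a mean of 35.4 CPM with NTHi and 18.9 CPM in controls. The 6 mesothelial markers summed to 1713 to 2250 CPM with NTHi and 1750 to 2235 CPM in controls, with 0 called higher and 2 lower of 4 tested and with Upk3b, Wt1 and Lrrn4 below 1 CPM in both. Nearly all of that sum was Krt19, at a mean of 1236 CPM with NTHi and 1369 CPM in controls, and Msln, at 725 and 622 CPM. Krt19 is also in the list of the intermediate state with high keratin 8 described below. The 10 mesenchymal markers summed to 191 to 534 CPM with NTHi and 199.9 to 502 CPM in controls, with 2 called higher and 2 lower of 8 tested, and 10 basal cell markers summed to 205 to 525 CPM with NTHi and 297 to 831 CPM in controls, with 0 higher and 7 lower. Of all genes tested 20.1% were called higher and 20.4% lower, so the mesenchymal counts were near the share of all genes. The part of the lymphatic endothelial, mesenchymal and basal markers in the rise of Pdpn was not tested.

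Rtkn2 had the largest fall of the 10. It was at 1.38 to 2.91 CPM with NTHi (median 1.72) and 13.4 to 34.2 CPM in controls (median 18.4), a log2 change of -3.41 ± 0.18 (SE, n = 7 each; adjusted p = 1.1e-09, edgeR). These levels rested on 52 to 114 counts per NTHi library and 523 to 1448 counts per control library. The groups did not overlap, although 1 control library and 1 NTHi library of experiment C each stood above the rest of its group. Without both, the changes of the markers were still called, 1 higher and 9 lower, with a median of -1.13.

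Akap5, an anchoring protein that holds protein kinase A at the membrane, averaged 189 ± 25.7 CPM with NTHi and 429 ± 75.2 CPM in controls (SD, n = 7 each). Its log2 change was -1.18 ± 0.10. Clic5, a chloride intracellular channel protein linked to ezrin, averaged 173 ± 16.1 CPM with NTHi and 372 ± 14.6 CPM in controls, a log2 change of -1.11 ± 0.050. Spock2, a secreted matrix proteoglycan, was low in culture, at 2.96 ± 0.43 CPM with NTHi and 6.30 ± 0.87 CPM in controls, and its log2 change was -1.10 ± 0.10. Hopx, an atypical homeodomain protein without DNA binding of its own, averaged 143 ± 12.2 CPM with NTHi and 242 ± 22.3 CPM in controls, a log2 change of -0.76 ± 0.054. Reads of Hopx and of Hopxos or LOC115490297, which overlap it in RefSeq, cannot be told apart here, since the use of strand in counting is not given in the sources used here. The same holds for Aqp5 with Gm34765 and for Spock2 with Gm51801 and Mir6906.

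Cav1, the scaffold protein of caveolae, changed least. It was at 21.3 to 26.8 CPM with NTHi (median 24.1) and 25.2 to 50.2 CPM in controls (median 39.6), so the NTHi range ran into that of the controls at its lowest library. Within each experiment no NTHi library reached a control library. The log2 change was -0.62 ± 0.097 (SE, n = 7 each; adjusted p = 0.00011, edgeR), and within experiments A, B and C the difference was -0.25, -0.54 and -0.88. Whether the NTHi effect differs between experiments was tested with an interaction term, and for Cav1 the unadjusted p was 0.0093 and the adjusted p 0.9997 (edgeR). In that test edgeR called 0 of the 16337 genes (675 had an unadjusted p under 0.05), and DESeq2 called 8, of which 0 were markers. Of 12 endothelial markers, 10 could be tested between NTHi and control cultures, and 1 was called higher and 4 lower, beside 20.1% and 20.4% of all genes. They summed to 50.2 to 199 CPM with NTHi and 115 to 262 CPM in controls, with Tie1, Tek, Cldn5, Emcn and Ramp2 below 1 CPM in both. On average most of that sum was Car4, at 131 CPM with NTHi and 140 CPM in controls, while Pecam1 averaged 1.6 and 1.7 CPM. The part of the endothelial markers in the lower Cav1 was not tested.

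**Figure D2:**
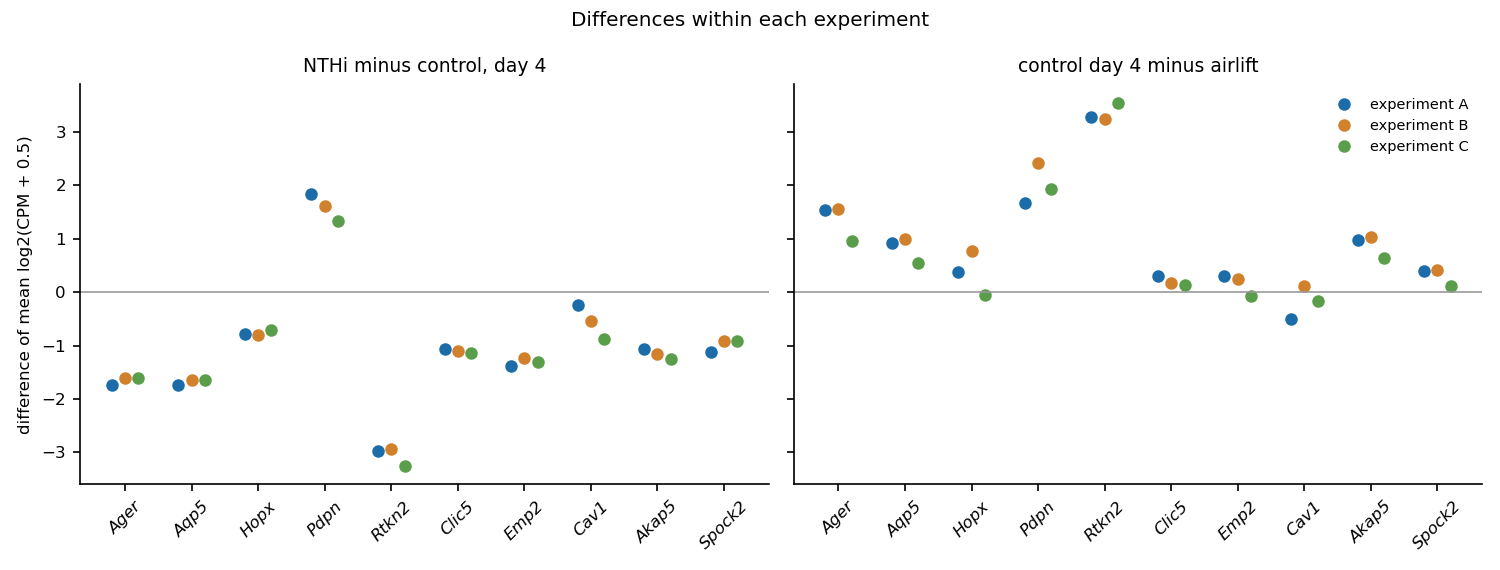
Difference of mean log2(CPM + 0.5) of each marker within experiments A, B and C, for NTHi minus control at day 4 (left) and control day 4 minus airlift (right). On the left all 3 points of a marker lie on the same side of 0. On the right those of Hopx, Emp2 and Cav1 lie on both sides.

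Some markers of other cell types were also called between NTHi and control cultures, where 20.1% of all genes were higher and 20.4% lower. The 12 macrophage markers summed to 1381 to 4945 CPM with NTHi and 6988 to 14690 CPM in controls, with 1 called higher and 9 lower and C1qa, C1qb and C1qc below 1 CPM with NTHi. Most of that sum was Lyz2, at a mean of 2703 CPM with NTHi and 8328 CPM in controls, while Adgre1 averaged 90.7 and 39.8 CPM. Of 10 alveolar type 2 markers 4 were called higher and 5 lower, of 8 club and secretory markers 0 and 7, of 8 multiciliated markers 0 and 2 (a smaller share called than the 40.5% of all genes), and of 6 pan-epithelial markers 3 and 2. The pan-epithelial markers summed to 4686 to 5114 CPM with NTHi and 4117 to 4948 CPM in controls. The part of these cell types in the fall of the alveolar type 1 markers was not tested.

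The second question was how the markers moved without bacteria, over isolation, airlift and day 4. The markers split at airlift: 4 rose (Akap5, Clic5, Emp2 and Hopx) and 6 fell (Rtkn2, Spock2, Ager, Pdpn, Cav1 and Aqp5) relative to fresh cells. Of 18302 genes tested in this comparison 74.6% were called, 37.9% higher and 36.7% lower. The share of the markers that rose was therefore near that of all genes. The median log2 change was -0.37 for the 10 markers and 0.0026 for all genes. With scaling by library totals alone the median of all genes moved to 0.49, with 10131 genes called higher and 4223 lower in place of 6928 and 6718. Under that scaling 5 markers were called higher and 4 lower, since Aqp5 turned to 0.25 and was called higher, and Cav1, at -0.02, was no longer called. The direction of Aqp5 and the call of Cav1 at airlift therefore depend on the scaling, whereas the other 8 markers kept both.

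Akap5 had the largest rise. It was at 42.2, 26.1 and 29.3 CPM in the fresh libraries of experiments A, B and C, at 189 to 295 CPM at airlift (median 207) and at 361 to 582 CPM in day 4 controls (median 413). Its level thus stepped up at both stages with no overlap, by 2.83 ± 0.17 at airlift and by a further 0.87 ± 0.11 in day 4 controls (log2 change ± SE; adjusted p = 3.6e-11 and 3.9e-06, edgeR). Clic5 and Emp2 made most of their rise by airlift. Clic5 was at 132, 123.5 and 123.4 CPM in fresh cells, at 298 to 342 CPM at airlift (median 323.5) and at 354 to 392 CPM in day 4 controls (median 367), with log2 changes of 1.37 ± 0.062 at airlift and 0.19 ± 0.046 after it (adjusted p = 7.1e-13 and 0.0020, edgeR). Without experiment A the later change of Clic5, at 0.14, was not called (adjusted p = 0.077, edgeR). For Emp2 the fresh values were 424, 380 and 334 CPM, and the ranges were 869 to 1036 CPM at airlift (median 918) and 953 to 1149 CPM in day 4 controls (median 1022). Emp2 rose by 1.33 ± 0.080 at airlift, while the later difference of 0.13 ± 0.059 was not called (adjusted p = 0.077, edgeR), although leaving out airlift replicate 1 or 2 of experiment C gave a called difference of 0.16 or 0.17. It was also called without experiment C, at 0.26, in a fit on all 23 libraries, at 0.14, and without the low-count filter, at 0.14.

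Ager and Rtkn2 dipped at airlift and were close to their fresh level again by day 4. Ager was at 1052.5, 911 and 772 CPM in fresh cells, at 298 to 472 CPM at airlift (median 356) and at 827 to 1086 CPM in day 4 controls (median 897). Airlift libraries lay below those of both other stages, while fresh and control libraries overlapped. The log2 change was -1.29 ± 0.12 at airlift and 1.31 ± 0.097 from airlift to the day 4 control, and between control and fresh cells it was 0.02 ± 0.12 (adjusted p = 0.88, edgeR). Rtkn2 was at 24.6, 17.0 and 13.3 CPM in fresh cells, at 0.99 to 2.32 CPM at airlift (median 1.21) and at 13.4 to 34.2 CPM in day 4 controls (median 18.4). It fell by 3.74 ± 0.27 on the log2 scale at airlift, rose by 3.78 ± 0.24 after it, and differed by 0.04 ± 0.24 between control and fresh cells (adjusted p = 0.90, edgeR). That last value had opposite signs in single experiments, at -0.64 in A, -0.03 in B and 0.79 in C. A missed threshold does not show that control and fresh levels were equal, and with library totals alone Ager was called higher in controls, by 0.50.

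Pdpn and Aqp5 also fell at airlift and ended above the fresh level. Pdpn was at 30.1, 29.0 and 32.6 CPM in fresh cells, at 11.4 to 23.03 CPM at airlift (median 17.6) and at 56.1 to 88.8 CPM in day 4 controls (median 73.3). These 3 groups did not overlap, with log2 changes of -0.80 ± 0.12 at airlift and 2.01 ± 0.098 from airlift to day 4 (adjusted p = 7.4e-06 and 1.1e-11, edgeR). Aqp5 was at 610.5, 605 and 595 CPM in fresh cells, at 426 to 579 CPM at airlift (median 510) and at 801 to 996 CPM in day 4 controls (median 893). Its log2 change was -0.23 ± 0.080 at airlift and 0.79 ± 0.064 after it (adjusted p = 0.013 and 9.2e-09, edgeR). The change at airlift was not called without the fresh library of experiment B (-0.18), without experiment A (-0.23) or B (-0.14), or with counts summed per experiment and group (-0.19). Within experiments A, B and C the difference of Aqp5 at airlift was -0.26, -0.45 and -0.06.

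Spock2 fell at airlift and stayed low, and so did Cav1 in experiments A and B. Spock2 was at 77.5, 47.4 and 52.1 CPM in fresh cells, at 3.74 to 6.25 CPM at airlift (median 5.20) and at 5.29 to 7.96 CPM in day 4 controls (median 6.24). Every cultured library lay far below the fresh ones, with a log2 change of -3.54 ± 0.16 at airlift (adjusted p = 7.1e-13, edgeR). Between control and airlift cultures, which overlapped, it was 0.31 ± 0.14 (adjusted p = 0.074, edgeR). That difference was called, between 0.35 and 0.39, without any one of 4 libraries: control replicate 1 of experiment A, airlift replicate 1 of B, and airlift replicate 1 or control replicate 2 of C. Cav1 was at 65.4, 56.6 and 50.4 CPM in fresh cells, at 33.8 to 51.3 CPM at airlift (median 38.6) and at 25.2 to 50.2 CPM in day 4 controls (median 39.6). These ranges overlapped, and the log2 change was -0.51 ± 0.14 at airlift (adjusted p = 0.0034, edgeR), which was not called without the fresh library of experiment A (-0.27). Within experiments A, B and C the difference of Cav1 at airlift was -0.75, -0.69 and -0.03, so its fall was not seen in C. Between control and airlift cultures it was -0.17 ± 0.11 (adjusted p = 0.20, edgeR).

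Hopx rose in steps over the untreated stages. It was at 152, 133 and 146 CPM in fresh cells, at 145 to 234 CPM at airlift (median 193) and at 212 to 267 CPM in day 4 controls (median 246). Neighbouring stages overlapped, and the log2 changes were 0.43 ± 0.12 at airlift and 0.33 ± 0.091 after it (adjusted p = 0.0031 and 0.0053, edgeR). In all, 7 of the 10 markers rose and 0 fell between airlift and the day 4 control, when 54.5% of the 18302 genes tested were called, 26.9% higher and 27.7% lower. The median log2 change was 0.56 for the markers and -0.02 for all genes. Between control and fresh cells 6 markers were higher (Akap5, Clic5, Emp2, Pdpn, Hopx and Aqp5) and 2 lower (Spock2 and Cav1), against 76.6% of all genes called, 38.8% higher and 37.7% lower, with median log2 changes of 0.65 for the markers and 0.02 for all genes. With library totals alone that median of all genes was 0.49 (10149 genes higher and 4497 lower, in place of 7108 and 6904), and 7 markers were higher and 1 lower, since Ager was called higher and Cav1, at -0.20, was not called. The comparisons of stages share the same airlift, fresh and control libraries, so they are not independent of each other or of the NTHi comparison.

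**Figure D3:**
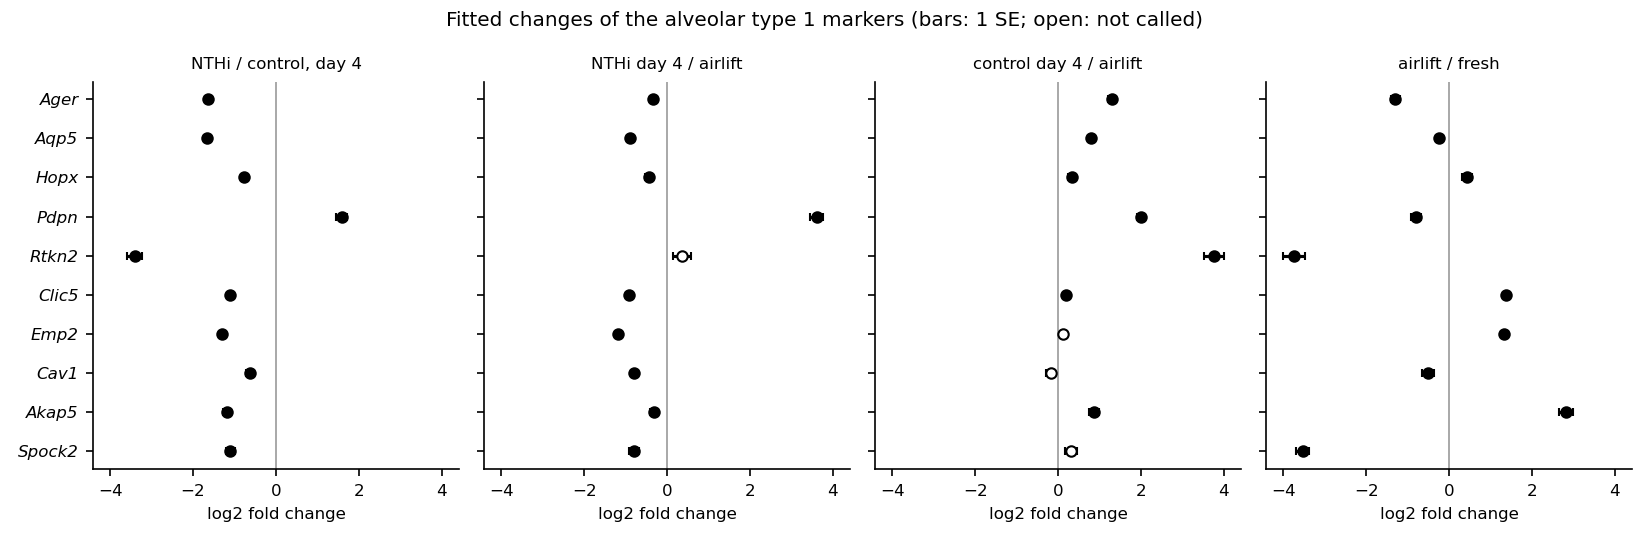
Fitted log2 fold changes of the 10 markers with 1 SE, for NTHi against control at day 4, NTHi against airlift, control against airlift and airlift against fresh cells, with open points for changes not called. Pdpn is the marker to the right of 0 in the first panel at 1.59, and the airlift panel has 4 markers above 0 and 6 below.

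The size of the rise after airlift differed between experiments for some markers. In a test of the interaction of stage and experiment, added after the data were seen, edgeR called Ager (adjusted p = 0.042), Hopx (adjusted p = 0.0096) and Pdpn (adjusted p = 0.047), against 2.08% of 16719 genes. DESeq2's likelihood ratio test called 5, adding Aqp5 (adjusted p = 0.0057) and Emp2 (adjusted p = 0.00048), but it also called more of all genes, 983 of 16719 in place of 348. For Hopx, control minus airlift was 0.38 in experiment A, 0.78 in B and -0.05 in C, so its rise after airlift was not seen in C. Without experiment A it was 0.31 and without experiment B 0.14, and neither was called. For Ager the differences were 1.54, 1.56 and 0.96 and for Pdpn 1.67, 2.41 and 1.93 in experiments A, B and C. The airlift libraries of experiment C were the highest of their group for Ager, Aqp5, Hopx, Pdpn, Emp2, Cav1 and Akap5.

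Set against airlift, NTHi cultures at day 4 were lower for 8 of the 10 markers, higher for Pdpn and not called for Rtkn2. Of 16635 genes tested in this comparison 60.8% were called, 29.7% higher and 31.1% lower, and the median log2 change was -0.61 for the markers and -0.02 for all genes. The log2 difference was -1.18 ± 0.056 for Emp2, -0.92 ± 0.062 for Clic5 and -0.89 ± 0.068 for Aqp5, with NTHi and airlift libraries apart. Smaller differences were those of Ager, at -0.33 ± 0.085, and of Akap5, at -0.31 ± 0.095 (adjusted p = 0.0033 and 0.011, edgeR). NTHi and airlift libraries overlapped for both, and without experiment C neither was called, at -0.13 and -0.12. Pdpn was higher by 3.61 ± 0.17, the largest change of any marker in this comparison. For Rtkn2 the difference was 0.36 ± 0.21 (adjusted p = 0.14, edgeR), and it was called, at 0.56, without airlift replicate 1 of experiment C, which had the highest airlift value.

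Against fresh cells, in a comparison added after the data were seen, NTHi cultures were higher in Pdpn, Akap5, Clic5 and Emp2, lower in Spock2, Rtkn2, Ager, Cav1 and Aqp5, and not called for Hopx. Of 17660 genes tested 78.2% were called, 39.3% higher and 38.9% lower, and the medians were -0.57 for the markers and 0.0086 for all genes. The share of markers called higher was near that of all genes, and the share called lower was somewhat above it. Emp2 was only just past the threshold, at 0.15 ± 0.061 (adjusted p = 0.038, edgeR). Leaving out any one of 7 libraries ended that call, with values from 0.12 to 0.16: the fresh library of B or C, NTHi replicate 1 of A, 1 or 2 of B, or 2 or 3 of C. DESeq2 size factors, at 0.10, and the DESeq2 test, at 0.12, also ended it. Hopx was at 126 to 156 CPM with NTHi (median 144) and at 133 to 152 CPM in fresh cells, and the difference of -0.01 ± 0.077 changed sign between settings. With library totals alone the median of all genes was 0.44 (9519 genes higher and 4764 lower, in place of 6946 and 6865), and Hopx was called higher, at 0.42.

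The order of the 4 groups by mean level differed between markers. Ager, Aqp5, Hopx, Cav1 and Spock2 had their lowest mean with NTHi, Clic5, Emp2 and Akap5 in fresh cells, and Pdpn and Rtkn2 at airlift. The highest mean was in day 4 controls for Ager, Aqp5, Hopx, Rtkn2, Clic5, Emp2 and Akap5, in fresh cells for Cav1 and Spock2, and with NTHi for Pdpn. For Pdpn every step of the order, airlift, fresh, control and NTHi, was without overlap and called. Several neighbours in the other orders were not called apart: control and fresh cells for Ager and Rtkn2, NTHi and fresh cells for Hopx, NTHi and airlift for Rtkn2, and control and airlift for Emp2, Cav1 and Spock2. Spread within a group ran from a coefficient of variation of 1.34% for Aqp5 in fresh cells to 35.4% for Rtkn2 at airlift.

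How alike the markers were over all 23 libraries was measured by the root mean square difference of log2(CPM + 0.5), each gene centred on its own mean, where 0 is an identical pattern. This is a description over libraries that share group and experiment, with no test. The closest of the 45 pairs was Clic5 with Emp2 at 0.159, followed by Ager with Aqp5 at 0.341 and Hopx with Clic5 at 0.357. The most unlike pairs were Pdpn with Spock2 at 2.29, Akap5 with Spock2 at 2.23 and Pdpn with Rtkn2 at 2.18, and the median pair was at 1.16.

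**Figure D4:**
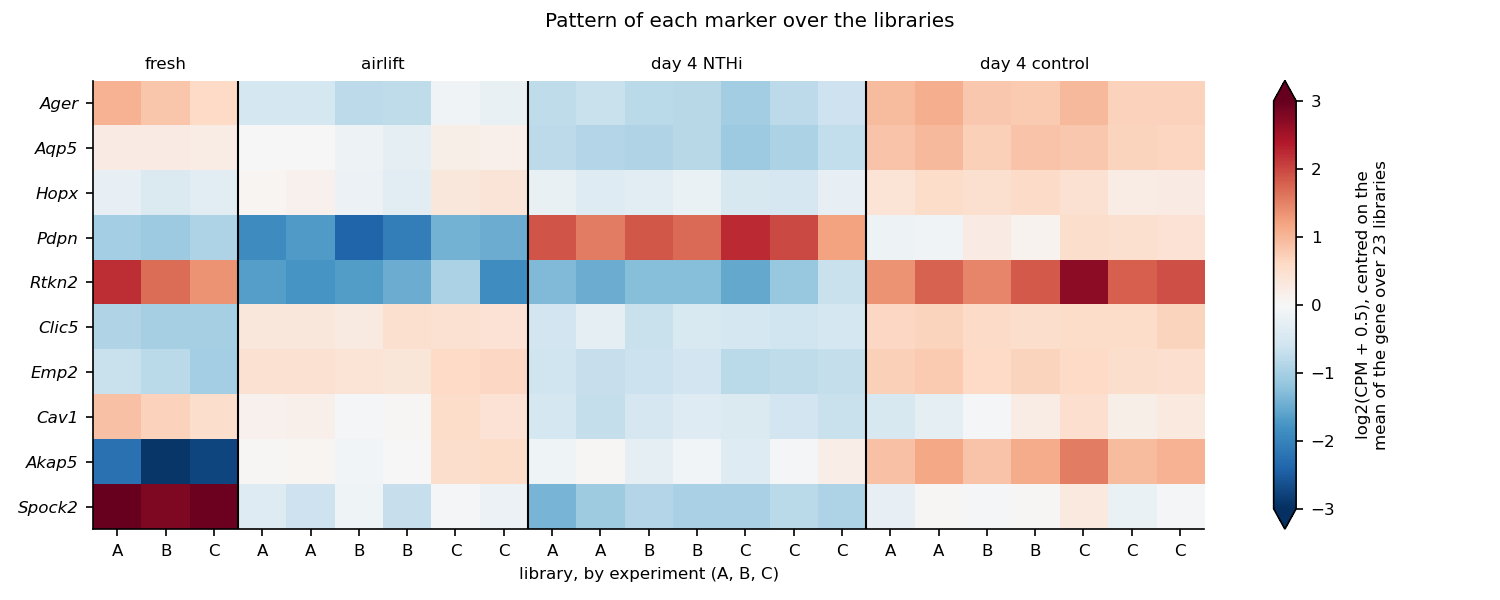
Level of each marker in each of the 23 libraries as log2(CPM + 0.5) centred on the mean of the gene, red above and blue below it, ordered by group and experiment. Pdpn is highest with NTHi, Spock2 is highest in the fresh libraries and Akap5 is lowest there.

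Among 11569 genes with a mean of at least 4 CPM, the pair nearest to each marker was found by the same measure. Sema3b was nearest to both Clic5 (0.142) and Emp2 (0.153), followed by Ehd2 for Clic5 (0.212) and Sema3e for Emp2 (0.239). Hopx was nearest to Kank3 (0.164) and Paqr7 (0.17), Aqp5 to Entrep1 (0.206) and Tns1 (0.251), Cav1 to Dapk1 (0.224) and Acat1 (0.233), and Ager to St6galnac2 (0.262) and Cadm1 (0.298). Spock2 was nearest to Apoc1 (0.276) and the MHC class II peptide-loading gene H2-DMa (0.291), and Akap5 to the chloride channel gene Ano1 (0.328) and Mmp11 (0.35). Pdpn was nearest to Vcam1 (0.36), a leukocyte adhesion protein, which averaged 18.8 CPM in fresh cells, 6.61 CPM at airlift, 104 CPM at day 4 with NTHi and 32.7 CPM in day 4 controls, and then to Fst (0.432). The genes nearest to Rtkn2 were farther from it than those of any other marker, with Thbs3 at 0.709 and Snx22 at 0.721. All 20 places were the same with library totals alone, and with a pseudocount of 1 all but Fst and Mmp11 were.

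A further 20 genes of alveolar type 1 cells were tested beside the 10 markers. This list, like the 10 markers, was chosen with earlier results of these data known, so it is no separate support for their fall. With NTHi 16 were called lower, 1 higher and 3 neither, with a median log2 change of -0.67. Among all genes 20.4% were called lower and 20.1% higher. Cldn18, the tight junction claudin of the alveolus, fell by 0.88 ± 0.050, with 578 ± 37.5 CPM in NTHi cultures and 1065 ± 72.6 CPM in controls (SD, n = 7 each). Gprc5a, an orphan receptor, fell by 0.77 ± 0.044 and Sec14l3 by 1.74 ± 0.11, while Mal2, a protein of apical transport, rose by 0.68 ± 0.042. Between airlift and day 4 controls the same list was split, with 10 called higher and 6 lower and a median of 0.23, beside 26.9% higher and 27.7% lower among all genes, so the share that fell was near that of all genes. Sec14l3 rose by 1.82 ± 0.11 and the basement membrane collagen gene Col4a3 by 1.63 ± 0.13, while Cavin2 fell by 1.73 ± 0.044 and Ahnak by 0.81 ± 0.069. At airlift, relative to fresh cells, 13 were higher and 5 lower (median 0.47), beside 37.9% and 36.7% of all genes, or 15 and 4 (median 0.95) with library totals alone.

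**Figure D5:**
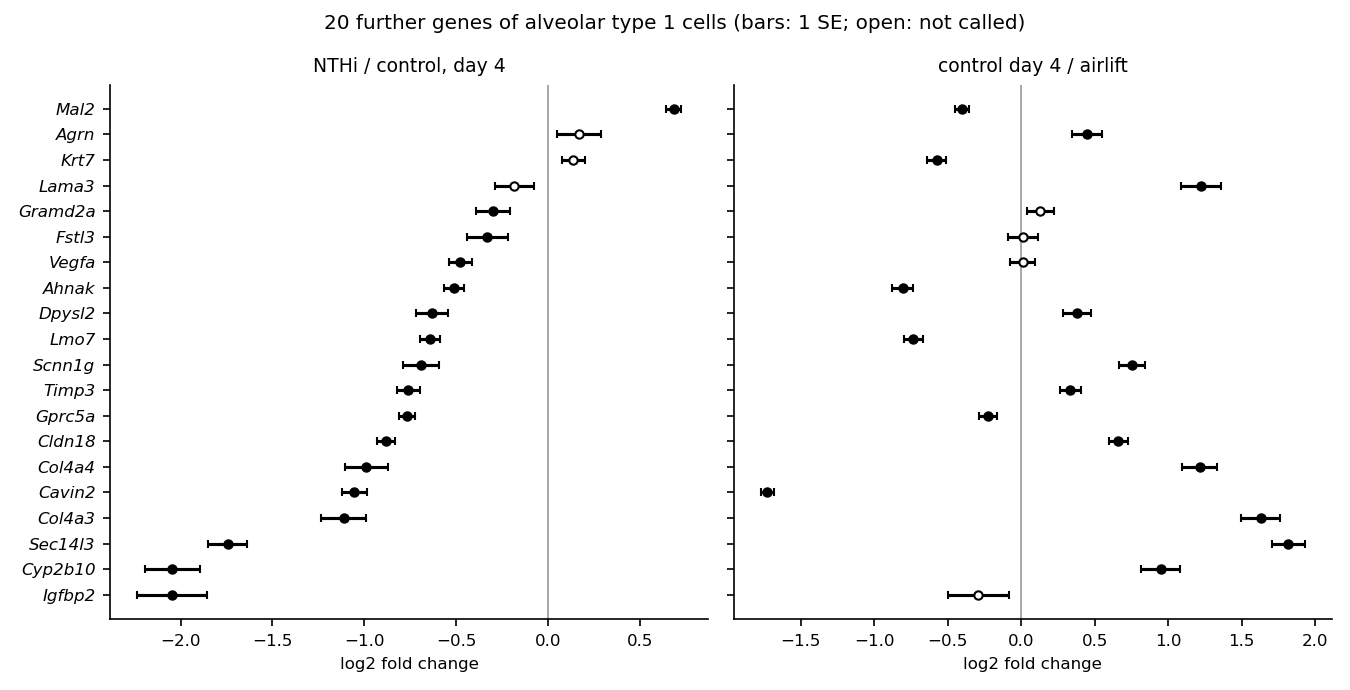
Fitted log2 fold changes with 1 SE of the 20 further genes of alveolar type 1 cells, for NTHi against control (left) and control day 4 against airlift (right), with open points for changes not called. On the left 16 filled points lie below 0 and Mal2 lies above it at 0.68, and on the right 10 filled points lie above 0 and 6 below.

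Partners of single markers were described from lists of the same kind, whose counts stand beside 20.1% of all genes called higher and 20.4% lower with NTHi. Of 7 caveola genes tested beside Cav1, 6 fell with NTHi and 0 rose (median -0.35), among them the coat protein gene Cavin2 at -1.05 ± 0.069, Ehd2 at -0.91 ± 0.063, Cav2 at -0.35 ± 0.042 and Pacsin2 at -0.28 ± 0.031. Without the control and NTHi libraries of experiment C that stood apart 5 fell. Of 9 ligands and signalling partners of RAGE 4 rose and 2 fell (median 0.0016), the share that fell being near that of all genes, with the ligand gene S100a8 up by 2.40 ± 0.26, at 14.1 ± 4.45 CPM in NTHi cultures and 2.69 ± 0.97 CPM in controls (SD, n = 7 each). S100a4 fell by 1.46 ± 0.093, Myd88 rose by 0.36 ± 0.044 and Hmgb1 by 0.17 ± 0.048. Of 9 genes of ezrin, radixin, moesin and podoplanin partners 1 rose and 3 fell (median -0.11). Cd44, a hyaluronan receptor that associates with podoplanin, rose as Pdpn did, by 0.77 ± 0.046, while Ezr at -0.40 ± 0.037, Cd9 at -0.74 ± 0.11 and Clec1b, the platelet receptor for podoplanin, at -1.38 ± 0.23 fell. With library totals alone 5 of that list fell. Beside Aqp5, Aqp4 rose by 0.88 ± 0.10, and Aqp3 (-1.32 ± 0.16), Aqp9 (-0.80 ± 0.22) and Aqp1 (-0.45 ± 0.16) fell, so 1 of 4 other aquaporins rose and 3 fell (median -0.62), or 2 fell without those libraries of experiment C.

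Genes of a pathway, a lineage and an intermediate state linked to alveolar type 1 cells were mixed, again beside 20.1% of all genes higher and 20.4% lower with NTHi. YAP and TAZ, coactivators that bind TEAD factors, are needed for alveolar type 1 identity in the mouse. Of 14 genes of that pathway 7 rose with NTHi and 3 fell (median 0.25), with the target Ankrd1 up by 0.997 ± 0.071, Amotl2 by 0.86 ± 0.082 and Ccn1 by 0.50 ± 0.083, and Axl down by 0.93 ± 0.097. Between airlift and day 4 controls 4 rose and 3 fell (median -0.03), close to the 26.9% and 27.7% of all genes, or 5 and 5 without the control library of experiment C that stood apart. Of 9 transcription factors of the alveolar lineage 1 rose with NTHi and 2 fell (median -0.12). Etv5, which maintains alveolar type 2 cells, fell by 1.26 ± 0.074 and Cebpa by 0.45 ± 0.067, Foxa1 rose by 0.57 ± 0.044, and Klf5 at 0.14 ± 0.054 was not called. Without the libraries of experiment C that stood apart 3 fell. Of 12 genes of the intermediate state with high keratin 8, 7 rose with NTHi and 4 fell (median 0.26), with Tnip3 up by 1.47 ± 0.081, Itgb6 by 0.62 ± 0.061, Cldn4 by 0.57 ± 0.048 and Clu by 0.51 ± 0.075. The 4 that fell were Krt18 (mean 843 CPM with NTHi, 963 CPM in controls), Krt19 (1236 and 1369 CPM), Lgals3 (927 and 1381 CPM) and Cdkn1a (548 and 684 CPM). Clu averaged 42721 ± 3051 CPM with NTHi and 30114 ± 2701 CPM in controls (SD, n = 7 each), whereas Krt8 itself, at 1449 ± 68.9 CPM with NTHi and 1584 ± 145 CPM in controls, was not called (-0.13 ± 0.052). Between airlift and day 4 controls 3 of the 12 rose and 5 fell (median -0.06), beside the same 26.9% and 27.7%. With library totals alone 6 genes of the YAP and TEAD list rose with NTHi and 3 fell, and 6 of the keratin 8 list rose and 5 fell.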

How the data were processed

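Counts were deposited by the authors as 3 tables of raw, whole-number counts per gene, 1 per experiment. Tools named per the submitters' processing notes are STAR and DESeq2, and the build is GRCm39. Their versions, the counting tool and its strand setting were not given in the sources used here. Each table held 41098 lines, of which 25 fragments of broken lines were left out, leaving 41073 genes in 23 libraries. Among counts of 1 to 19, 69.3% to 74.9% were even. Replicate pairs differed by more than the sampling noise of independent counts (chi-square per degree of freedom from 2.97 to 86.3 over 13 pairs), and each library was counted once. With so many even counts the true noise may be larger, so the lowest of these values may lie near it. The excess does not show that the libraries are independent replicates. A control and an NTHi library of experiment C stood apart from their replicates, and results were also computed without these 2.

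Genes were kept by filterByExpr (minimum count 10) and tested in edgeR 4.0.16 (R 4.3.3) with TMM scaling and terms for group and experiment, at a Benjamini-Hochberg adjusted p under 0.05 over all genes tested. Fresh, airlift and control libraries shared a fit. SE is the log2 change divided by the root of F. CPM used TMM-scaled totals. The scripts were tested on simulated data. Alternatives included DESeq2 1.42.0 (size factors, Wald test), library totals, no filter, no experiment term, halved counts, a fit on all 23 libraries, counts summed per group and experiment, each experiment and each replicate left out. Groups came from the labels. The markers and all gene lists were chosen with earlier results of these data known. Named genes are the 10 markers, the 2 genes nearest to each, and up to 4 of each list with the smallest p in a comparison. Krt8, and the genes of its list that fell with NTHi, were named after their values were seen. Promoters are RefSeq GRCm38.p6, not the build of the counts, so no coordinates were joined.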

Additional observations from a re-analysis of the deposited data

Results flagged for a closer look

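Among 30 sets of 6 or 7 libraries (10 markers in airlift, NTHi and control cultures), 4 held a library far from the others. Chance flags about 1 set in 20 where values are independent and normal. These sets pool 3 experiments and share libraries, so the 4 cannot be set against that rate. All 4 flagged values were in experiment C. Rtkn2 was at 2.323 CPM in airlift replicate 1, with the next value at 1.448 CPM, at 2.91 CPM in NTHi replicate 3, with the next at 1.969 CPM, and at 34.19 CPM in control replicate 1, with the next at 20.3 CPM. Akap5 was at 582.5 CPM in the same control library, with the next at 448.5 CPM. The change between airlift and day 4 controls differed between experiments by the interaction test (edgeR, adjusted over all genes) for Ager (adjusted p = 0.042446), Hopx (adjusted p = 0.0096102) and Pdpn (adjusted p = 0.047077).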

How the results depend on the processing

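Of 1440 alternative log2 changes of the markers, 1373 kept direction and side of the threshold, 27 lost a call, 16 gained one and 24 changed sign. For NTHi against control all 270 of 270 were kept. With library totals alone, genes called lower numbered 4223 for airlift against fresh cells (6718 with TMM) and 4497 for control against fresh cells (6904 with TMM), the markers called lower in control against fresh cells numbered 1 in place of 2, and Aqp5 at airlift turned to 0.25 and Hopx in NTHi against fresh cells to 0.42. Without the low-count filter 1 marker (Cav1) was called lower between airlift and day 4 controls in place of 0, Emp2 (0.14) and Spock2 (0.32) were called higher there, and Hopx in NTHi against fresh cells was 0.039. Leaving out 1 library gave 1 to 2 markers called higher for NTHi against airlift. By DESeq2's likelihood ratio test 5 markers, in place of 3, changed by experiment after airlift, as did 983 of all genes in place of 348. The other sign changes were in values that were not called. Control against fresh cells gave Ager -0.027 with DESeq2 size factors, -0.023 in the DESeq2 test, -0.025 with halved counts, -0.033 without experiment C and -0.13 to 0.11 with 1 library left out (-0.013 without control replicate 2 of experiment A), and Rtkn2 -0.011 with DESeq2 size factors, -0.019 in the DESeq2 test, -0.35 without experiment C, -0.083 without both outlying libraries and -0.33 to 0.43 with 1 library left out (-0.0046 without control replicate 2 of experiment B). NTHi against fresh cells gave Hopx 0.037 with summed counts, 0.013 without experiment A, 0.053 without experiment C and -0.083 to 0.054 with 1 library left out (0.019, 0.012, 0.0042 and 0.00996 without the fresh library or NTHi replicate 2 of experiment A, or NTHi replicate 1 or 2 of experiment C). The cause was not tested. Labels number replicates alike across groups but do not say what a number shares, so the numbers were not taken as pairs. Deviations of same-numbered libraries had r from -0.59 to 0.19. For NTHi against control r was 0.10 in A, 0.19 in B and 0.18, -0.40 and -0.59 in C. Both negative values came from pairs with an outlying library, so r cannot show whether pairing was absent. With a replicate block, Spock2 in control against airlift became called at 0.33 (adjusted p = 0.046, edgeR) and no other marker's call changed. With counts halved, the sign of Ager in control against fresh cells (above) and the call of Emp2 in NTHi against fresh cells (0.12) changed.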
